A study of Mus musculus with 6 samples.

Results

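The acute phase genes examined here were Saa1, Saa2, Saa4, Orm1, Orm2, Hp, Hpx, Lcn2, Itih4 and Apcs, taken from a list of gene symbols from which serpins were left out. All 10 symbols were found among the 23282 rows of the count files, and all 10 passed the filter on low counts, which left 12505 rows for testing. The tested libraries came from livers of male C57BL/6N mice (strain entry C57BL/6 in the sample labels) that started a high-fat diet at 8 weeks of age and ate it for 12 weeks in all. For the last 4 of these weeks, after 8 weeks of diet alone, the mice behind 3 libraries received atractylodin, a polyacetylene of Atractylodes rhizomes, at 10 mg/kg by mouth on 5 days per week, and those behind the other 3 received vehicle. Both groups ate the high-fat diet, and control-diet livers are not analysed here. Whether each numbered library is a separate animal is not stated in the labels, and p-values here reflect only how the 6 libraries varied.

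Acute phase proteins are plasma proteins that hepatocytes secrete in larger or smaller amounts during infection, injury or inflammation. Interleukin-6 acts through its receptor chains and the transcription factor STAT3, and interleukin-1 and tumour necrosis factor act through NF-kB, while C/EBP factors bind many of the promoters. In the mouse, serum amyloid A 1 and 2 respond most steeply, and haptoglobin, hemopexin and serum amyloid P are also induced. Several of these transcripts are also made in liver without infection or injury, as in the fatty liver of obesity. Lipocalin 2 is produced by both hepatocytes and neutrophils.

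Saa1, Saa2 and Saa4 lie within one cluster on chromosome 7 of GRCm38, the build also called mm10, at 46740497 to 46742980 (minus strand), 46751790 to 46754313 (plus strand) and 46727998 to 46732603 (minus strand). The orosomucoid genes Orm1 (63344560 to 63348163) and Orm2 (63362449 to 63365878) are on the plus strand of chromosome 4. Their paralog Orm3 (63356162 to 63359511) lies between them on the same strand. Hp is at 109575128 to 109579172 on chromosome 8, Hpx at 105591613 to 105600137 on chromosome 7 and Lcn2 at 32384633 to 32388252 on chromosome 2, all on the minus strand. Itih4 occupies 30886476 to 30902353 on the plus strand of chromosome 14 and Apcs 172893961 to 172895041 on the minus strand of chromosome 1. All are protein-coding, and none overlaps another gene annotated in GENCODE M21. Since the libraries read the 3' end of each transcript, the last 300 bases decide how well paralogs can be told apart. Saa1 and Saa2 were 92.4% identical there with a longest shared run of 73 bases, and Orm1 and Orm2 were 97.7% identical with a longest shared run of 141 bases, so the division of reads within each of these pairs is uncertain. The pairs differ in degree. Of the 50-base words in that stretch, 9.56% of those of Saa1 occurred in Saa2, and 58.6% of those of Orm1 in Orm2. Orm3 was 90.7% identical to Orm1 and 91.4% to Orm2. Saa1 was 48.3% identical to Saa4 and 44.6% to Saa3 over the same length.

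Promoter sequence is shown for the most variable pair, Saa1 and Saa2, for Orm2, and for Apcs, whose groups did not overlap. Each is a 200-base RefSeq window on GRCm38.p6 that runs from base -250 to base -51 before the RefSeq start and is printed on the strand of its gene. For Saa2 and Apcs that start differs from the GENCODE start given above. Capitals mark matches to the C/EBP motif TTGCNNAA on either strand.
Saa1 promoter, chr7:46743031-46743230, minus strand: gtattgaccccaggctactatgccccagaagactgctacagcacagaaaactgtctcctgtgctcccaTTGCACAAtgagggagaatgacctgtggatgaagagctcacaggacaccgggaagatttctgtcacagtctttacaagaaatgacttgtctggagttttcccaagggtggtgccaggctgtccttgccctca
Saa2 promoter, chr7:46751583-46751782, plus strand: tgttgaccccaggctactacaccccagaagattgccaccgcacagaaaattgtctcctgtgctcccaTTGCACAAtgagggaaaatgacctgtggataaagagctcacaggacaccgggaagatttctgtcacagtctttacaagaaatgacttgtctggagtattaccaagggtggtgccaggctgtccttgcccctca
Orm2 promoter, chr4:63362199-63362398, plus strand: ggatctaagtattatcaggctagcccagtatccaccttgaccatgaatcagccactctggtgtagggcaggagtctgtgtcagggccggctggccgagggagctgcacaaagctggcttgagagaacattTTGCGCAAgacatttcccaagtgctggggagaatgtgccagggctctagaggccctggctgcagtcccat
Apcs promoter, chr1:172895105-172895304, minus strand: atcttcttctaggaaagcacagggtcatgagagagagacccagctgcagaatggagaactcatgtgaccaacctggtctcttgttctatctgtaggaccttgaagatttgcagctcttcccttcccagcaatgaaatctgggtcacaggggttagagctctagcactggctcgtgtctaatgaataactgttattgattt

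The Saa1 and Saa2 windows were 93.5% identical, and the C/EBP match lay at base -182 in Saa1 and -183 in Saa2. Orm2 held a match at base -120 that reads alike on both strands, and the Apcs window held none. Of the 8 members with a RefSeq window, 6 held the C/EBP letters, against 8.11% of all 32851 windows of the same length. The NF-kB motif, GGG and CC with any 5 bases between them, was in 5 of the 8 and in 37.2% of all windows. The STAT letters TTCNNNGAA were in 1 of the 8 (Apcs) and in 5.76% of all, and the interleukin-6 element CTGGGA in 2 of the 8 (Itih4 and Apcs) and in 22.1% of all. Matches of different motifs did not overlap each other in the 4 windows shown, and the motif letters were chosen with the sequences in view, so these counts describe the windows only.

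Library totals were 9871762 to 12565393 counts, except vehicle 1 with 1831461. A floor of 3 counts equalled 1.64 counts per 1000000 (CPM) in vehicle 1 and 0.239 to 0.304 CPM in the other 5. All members stood above these floors, with 157 or more counts each in vehicle 1. CPM values of genes are scaled by TMM, a normalization that lines up the bulk of the genes between libraries. The hepatocyte marker Alb, encoding albumin, was at 47792 to 56104 CPM in atractylodin libraries and 53195 to 55869 CPM in vehicle libraries.

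The summed acute phase transcripts differed more among the atractylodin libraries than among the vehicle libraries, with Saa1, Saa2 and Lcn2 spread most widely and Hp, Hpx and Itih4 least. The spread of all rows was not compared between the groups. The 10 genes took 0.766%, 0.529% and 1.07% of all counts in atractylodin 1, 2 and 3, against 1.03%, 0.986% and 1.01% in vehicle 1, 2 and 3, a mean of 0.789% ± 0.273 with atractylodin and 1.01% ± 0.0219 with vehicle (SD, n = 3 each). In whole liver, fewer cells of a type and less RNA per cell cannot be told apart. With edgeR's quasi-likelihood test none of the 10 passed an adjusted p of 0.05, where 7.25% of all tested rows did (3.92% higher and 3.33% lower). A background of that size gives fewer than 1 call in 10 genes, so the absence of calls does not set the members apart. An unadjusted p under 0.05 was found for 1 member (Hpx) and for 2693 of all 12505 rows. DESeq2 called 1 member, Hpx, while limma-voom and edgeR's likelihood ratio test called 0. All 10 estimates were below 0, with a median log2 fold change of -0.47 against 0.00 (-0.0015) over all tested rows. Without atractylodin 2, 5 of the 10 estimates were below 0 and 5 above. Without atractylodin 3 all 10 were below 0, with 1 member called (Apcs), where 751 of 12832 rows were called. In that fit 5 members had an unadjusted p under 0.05, and the share of all rows at that level was not counted. Among all rows 490 were called higher and 416 lower, and under scaling by total counts alone 312 and 707.

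**Figure D1:**
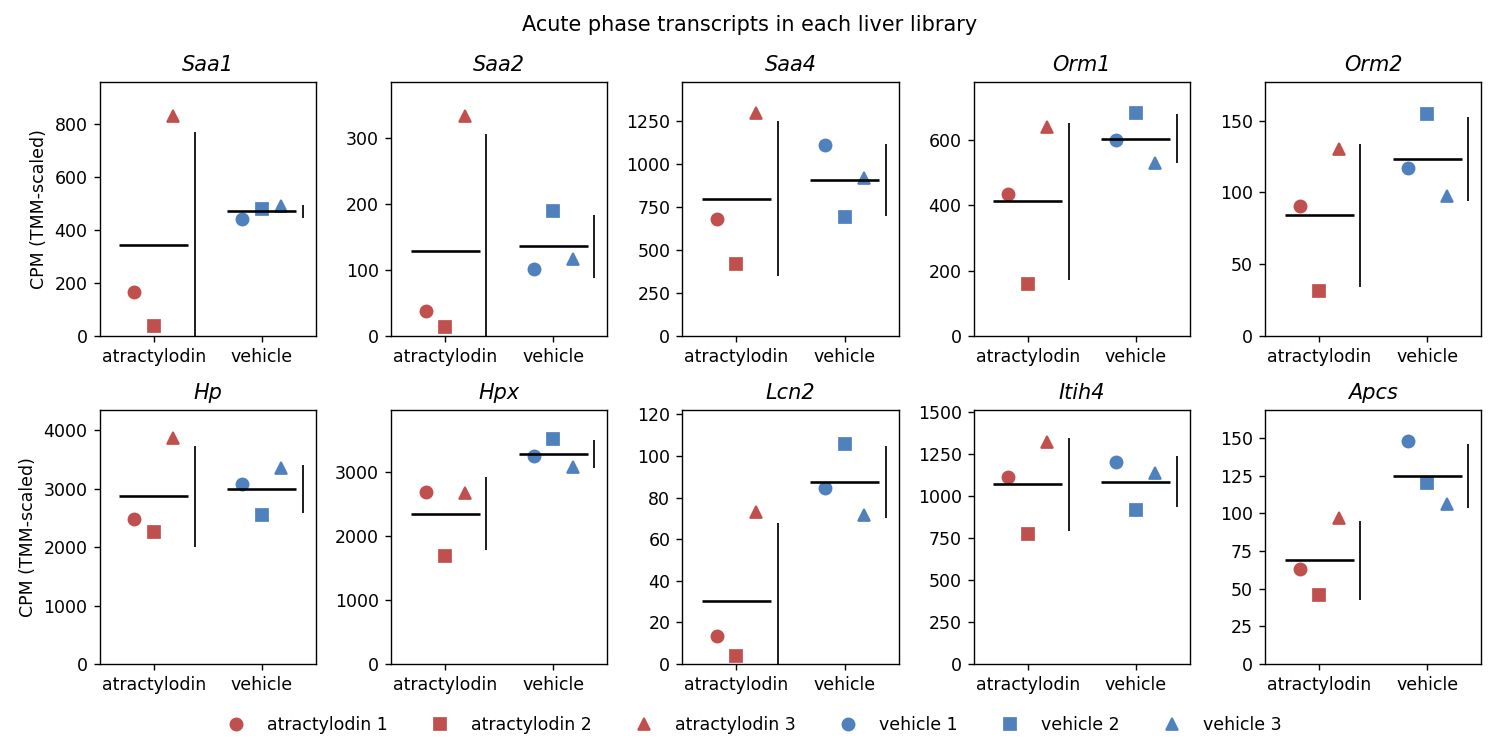
CPM (vertical axis, linear, from 0) of each acute phase gene in the 3 atractylodin libraries (red, left) and the 3 vehicle libraries (blue, right). Marker shapes stand for replicates 1, 2 and 3, the horizontal bar for the group mean and the vertical line for ± 1 SD, cut at 0. The atractylodin points are spread widely for Saa1, Saa2 and Lcn2, and the groups do not overlap for Hpx and Apcs.

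The serum amyloid A genes encode small apolipoproteins that travel on HDL, of which Saa1 and Saa2 are inducible and Saa4 is largely constitutive. Saa1 stood at 165, 39.4 and 830.4 CPM in atractylodin 1, 2 and 3, against 441, 480.3 and 489 CPM in vehicle 1, 2 and 3. The 3 vehicle values were nearly alike, whereas atractylodin 2 was 11.9-fold below and atractylodin 3 1.77-fold above the vehicle mean, so the atractylodin libraries lay on both sides of the vehicle range. The log2 fold change was -0.45 ± 1.15 (SE, edgeR adjusted p = 0.872), with a 95% interval of -3.58 to 2.69 that covers large differences in both directions. The intervals given here are those of single genes and are not adjusted over genes.

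Saa2 had the same order of libraries within the atractylodin group, with 37.7, 13.3 and 334 CPM in atractylodin 1, 2 and 3, against 101, 190.1 and 117 CPM in vehicle 1, 2 and 3. Atractylodin 1 and 2 lay below every vehicle library and atractylodin 3 above every one. The log2 fold change of Saa2 was -0.10 ± 1.30 (SE, edgeR adjusted p = 0.977, 95% interval -3.64 to 3.43). Summed into a single row to set aside how reads were divided, Saa1 and Saa2 gave 202, 52.6 and 1165 CPM in the atractylodin libraries, against 543, 670.4 and 606 CPM in the vehicle libraries (adjusted p = 0.898). The Saa1 count was 4.37, 2.97 and 2.49 times that of Saa2 in atractylodin 1, 2 and 3, and 4.36, 2.53 and 4.19 times in vehicle 1, 2 and 3, so the ratio overlapped between the groups while their summed level was lowest in atractylodin 2 and highest in atractylodin 3.

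Saa4 was less variable, with 679.5, 421 and 1298 CPM in atractylodin 1, 2 and 3, against 1111, 692 and 918 CPM in vehicle 1, 2 and 3. Atractylodin 2 was again lowest and atractylodin 3 highest, here 3.08-fold apart, compared with 21.1-fold for Saa1 and 25.2-fold for Saa2. Within the vehicle group the highest library exceeded the lowest 1.60-fold for Saa4, 1.11-fold for Saa1 and 1.88-fold for Saa2. The Saa4 log2 fold change was -0.18 ± 0.50 (SE, edgeR adjusted p = 0.881, 95% interval -1.53 to 1.18). Outside the members, Saa3, the serum amyloid A gene of macrophages and adipocytes, had 18.6, 11.7 and 17.96 CPM with atractylodin and 23.1, 43.3 and 20.9 CPM with vehicle. The groups did not overlap, but Saa3 did not pass in edgeR (log2 fold change -0.90 ± 0.33, adjusted p = 0.182), although it was called lower by DESeq2 (adjusted p = 0.0222) and in edgeR without the filter on low counts (adjusted p = 1.45e-05).

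Orm1 and Orm2 encode orosomucoids, or alpha-1-acid glycoproteins, lipocalin-fold carriers of drugs and lipids in plasma. Orm1 was at 434, 161 and 642 CPM in atractylodin 1, 2 and 3, against 599, 682 and 531 CPM in vehicle 1, 2 and 3. Orm2 followed the same order at a lower level, with 90.6, 31.2 and 130.0 CPM with atractylodin and 117, 155 and 97.4 CPM with vehicle. In both genes atractylodin 1 and 2 were below every vehicle library and atractylodin 3 lay inside the vehicle range. The log2 fold changes were -0.55 ± 0.55 for Orm1 (95% interval -2.06 to 0.96) and -0.55 ± 0.59 for Orm2 (95% interval -2.16 to 1.06), with edgeR adjusted p of 0.651 and 0.673. Summed with their paralog Orm3, the orosomucoid row had 536, 198 and 819 CPM with atractylodin and 730.4, 872 and 652 CPM with vehicle (adjusted p = 0.669). The ratio of Orm1 to Orm2 counts ranged from 4.79 to 5.14 in atractylodin libraries and from 4.40 to 5.45 in vehicle libraries.

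Haptoglobin and hemopexin bind free hemoglobin and free heme and carry them to clearance receptors. Hp was at 2472, 2265 and 3857 CPM in atractylodin 1, 2 and 3, against 3081, 2543 and 3348 CPM in vehicle 1, 2 and 3. Its groups overlapped, and among the members only Hpx and Itih4 had narrower intervals. The estimate was -0.06 ± 0.22 on the log2 scale (SE, edgeR adjusted p = 0.906), with a 95% interval from 0.657-fold to 1.40-fold of the vehicle level.

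Hpx had 2687, 1695 and 2675 CPM in atractylodin 1, 2 and 3, against 3262, 3527 and 3079 CPM in vehicle 1, 2 and 3. Every atractylodin library lay below every vehicle library. The mean was 2352 ± 569 CPM with atractylodin and 3289.6 ± 225 CPM with vehicle (SD, n = 3 each), a log2 fold change of -0.48 ± 0.16 (SE) with a 95% interval from 0.556-fold to 0.920-fold. Hpx did not pass in edgeR (unadjusted p = 0.0143, adjusted p = 0.115), was called lower by DESeq2 (adjusted p = 0.0189) and by edgeR without the filter on low counts (adjusted p = 6.55e-05), and was not called without any 1 of the 6 libraries (adjusted p 0.0749 to 0.355). Members without overlap between groups numbered 2 of 10, Hpx and Apcs, both lower with atractylodin. Over all tested rows the share without overlap was 26.2%, and 12.6% in the lower direction, so that count is near the background.

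Apcs encodes serum amyloid P component, a pentraxin that is a major acute phase protein of the mouse. It was at 63.2, 45.9 and 97.2 CPM in atractylodin 1, 2 and 3, against 148, 119.9 and 106 CPM in vehicle 1, 2 and 3. The highest atractylodin library lay just under the lowest vehicle library. The log2 fold change was -0.83 ± 0.32 (SE, unadjusted p = 0.0538, edgeR adjusted p = 0.242), with a 95% interval from 0.311-fold to 1.01-fold. Without atractylodin 3 Apcs was called lower (log2 fold change -1.16, adjusted p = 0.00156), the sole member call when single libraries were left out. Crp, the other classical pentraxin of the acute phase, which responds little in mice, had 436, 357 and 472 CPM with atractylodin and 358, 398 and 326 CPM with vehicle (adjusted p = 0.25).

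Lcn2 encodes lipocalin 2, which binds bacterial siderophores and withholds iron. It was at 13.7, 3.65 and 73.2 CPM in atractylodin 1, 2 and 3, against 84.5, 106 and 71.7 CPM in vehicle 1, 2 and 3. Atractylodin 1 was 6.40-fold and atractylodin 2 23.9-fold below the vehicle mean, while atractylodin 3 was just above the lowest vehicle library. The log2 fold change of -1.51 ± 1.08 (SE) was the most negative of the members and did not pass (edgeR adjusted p = 0.522, 95% interval -4.46 to 1.44). Without atractylodin 3 the Lcn2 estimate was -3.33 (adjusted p = 0.105), and without atractylodin 2 it was -0.99 (adjusted p = 0.637). By limma-voom the estimates were -2.35 for Lcn2, -1.41 for Saa1 and -1.25 for Saa2, none of them called (adjusted p 0.304 to 0.652).

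Neutrophil granules also hold lipocalin 2, so neutrophil markers were read beside Lcn2. Of 12 listed markers 11 were matched and 4 tested, and none passed. Their summed level was 6.08, 3.76 and 27.5 CPM in atractylodin 1, 2 and 3, against 9.15, 8.93 and 7.84 CPM in vehicle 1, 2 and 3. Mpo was at 0 in every library, and the most abundant marker, the calgranulin gene S100a8, had 0 counts in atractylodin 2 (up to 0.304 CPM by the floor) and 10.9 CPM in atractylodin 3. Within the atractylodin group the sum, S100a8 and S100a9 were lowest in atractylodin 2, as Lcn2 was, whereas the other tested markers, Mmp8 and Retnlg, were lowest in atractylodin 1. The part of neutrophils in the Lcn2 values was not tested.

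Itih4 encodes a plasma protein of the inter-alpha-trypsin inhibitor heavy chain family and is induced by interleukin-6. With 1111, 774 and 1322 CPM in atractylodin 1, 2 and 3 and 1203, 914 and 1135 CPM in vehicle 1, 2 and 3, its groups overlapped. The log2 fold change was -0.02 ± 0.20 (SE, edgeR adjusted p = 0.972), and the 95% interval ran from 0.704-fold to 1.38-fold.

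By CPM, which in these 3' libraries counts tags near the transcript end and is not divided by length, the order in the atractylodin group was Hp, Hpx, Itih4, Saa4, Orm1, Saa1, Saa2, Orm2, Apcs and Lcn2. In the vehicle group it was Hpx, Hp, Itih4, Saa4, Orm1, Saa1, Saa2, Apcs, Orm2 and Lcn2. With atractylodin the only neighbours whose libraries did not overlap were Hpx and Itih4. With vehicle the libraries did not overlap between Hp and Itih4, between Saa4 and Orm1, between Orm1 and Saa1 or between Saa1 and Saa2. These ranges run across libraries. Within each atractylodin library Itih4 exceeded Saa4, Saa4 exceeded Orm1, Saa1 exceeded Saa2 and Apcs exceeded Lcn2. The order of Hp and Hpx, Orm1 and Saa1, Saa2 and Orm2, and Orm2 and Apcs changed between those libraries.

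The members shared their lowest library but not their highest. They were chosen with these data known, so the shares of all rows are given for description only. All 10 were lowest in atractylodin 2, which held for 16.7% of tested rows, and 5 (Saa1, Saa2, Saa4, Hp and Itih4) were highest in atractylodin 3, which held for 15.6%. Orm1, Orm2, Hpx and Lcn2 were highest in vehicle 2, and Apcs in vehicle 1. The median member stood at 0.727, 0.317 and 1.14 times its vehicle mean in atractylodin 1, 2 and 3. The pooled within-group SD of log2(CPM + 1) was 1.68 for Saa2, 1.55 for Saa1 and 1.43 for Lcn2, against a median of 0.212 and a 95th percentile of 0.535 over all tested rows. Orm2 (0.78), Orm1 (0.74) and Saa4 (0.62) were also above that percentile, and Apcs (0.41), Hp (0.32), Itih4 (0.31) and Hpx (0.28) below it. Among the 2280 rows with a mean CPM at least that of the lowest member the 95th percentile was 0.315, which Apcs and Hp also exceeded. Total counts were also lowest in atractylodin 2 and highest in atractylodin 3 within that group, with 10152640, 9871762 and 12565393 counts in atractylodin 1, 2 and 3. The part of depth in the pattern of the members was not tested.

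**Figure D2:**
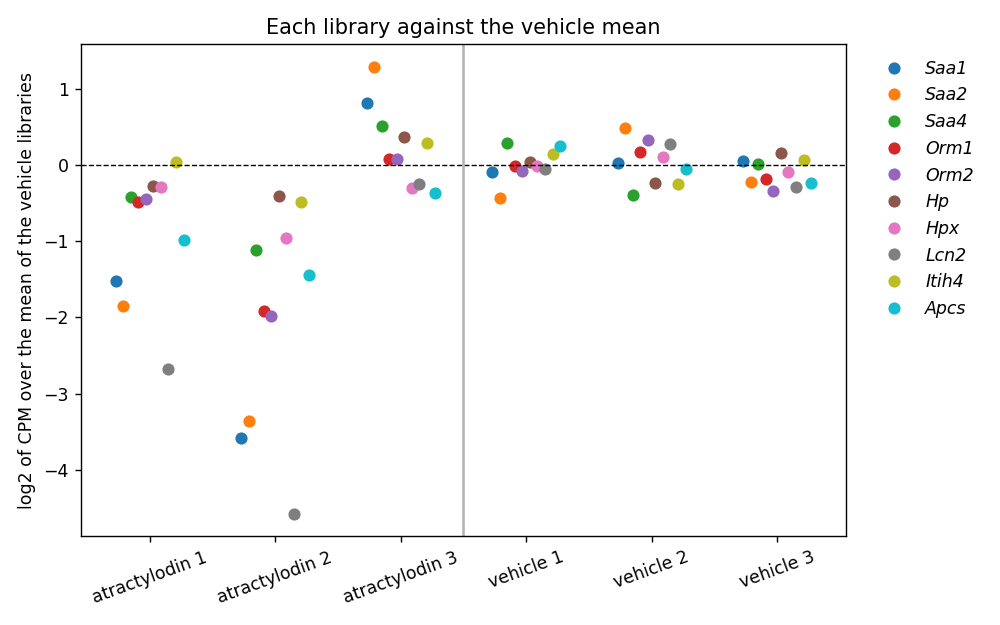
log2 of the CPM of each acute phase gene over the mean of the 3 vehicle libraries (vertical axis), by library (horizontal axis, atractylodin 1 to 3 left, vehicle 1 to 3 right); each point is 1 gene in 1 library and the dashed line marks the vehicle mean. All 10 genes are lowest in atractylodin 2, and Lcn2, Saa1 and Saa2 reach farthest below the line there.

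**Figure D3:**
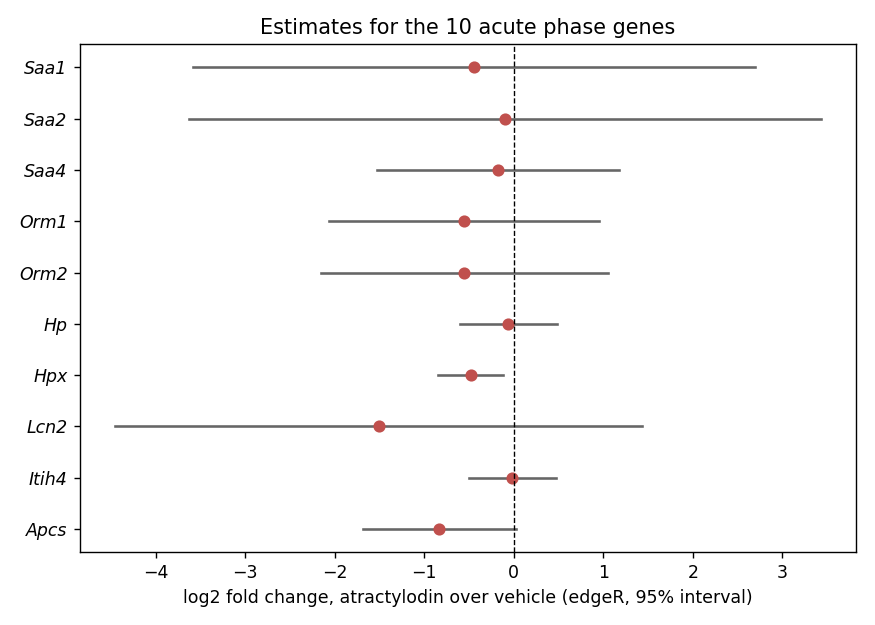
edgeR log2 fold change of each gene, atractylodin over vehicle (horizontal axis), with its unadjusted 95% interval as a line and the estimate as a point. Every estimate lies below 0, the Hpx interval alone stays below 0, and the intervals of Saa1, Saa2 and Lcn2 are the widest.

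Other positive acute phase genes had estimates on both sides of 0. Of 20 listed, 19 were tested, 10 with estimates above 0 and 9 below, and the median log2 fold change was 0.08. None passed in edgeR, and 1 (Saa3) had an unadjusted p under 0.05 (2693 of all 12505 rows did) and was called by DESeq2. In 12 of the 19 the highest library was atractylodin 3, and in 10 the lowest was atractylodin 2. Fgb, Mt2 and Hamp are described because of values already seen. Fgb, encoding the fibrinogen beta chain, had 6179, 5136 and 11076 CPM in atractylodin 1, 2 and 3, against 9671, 5793 and 8386 CPM in vehicle 1, 2 and 3 (adjusted p = 0.923). Mt2, a metallothionein gene induced by metals, glucocorticoids and interleukin-6, had 2009.5, 1100.3 and 7251 CPM with atractylodin and 1366, 649 and 878 CPM with vehicle (adjusted p = 0.338). Hamp, encoding the iron hormone hepcidin, had 224, 568 and 768 CPM with atractylodin and 78.1, 23.4 and 237 CPM with vehicle, with an estimate opposite in sign to those of the members (log2 fold change 2.17 ± 1.05, SE, adjusted p = 0.345). Atractylodin 2 was not the lowest of its group for Hamp.

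Negative acute phase proteins are secreted less during inflammation. Of 7 tested genes 2 rose (3.92% of all rows did), none fell (3.33%) and 5 had estimates below 0, with a median log2 fold change of -0.05. Rbp4, the retinol carrier, had 6900.2, 7194 and 6224 CPM with atractylodin, against 4807, 5382 and 5193 CPM with vehicle (log2 fold change 0.40 ± 0.10, SE, edgeR adjusted p = 0.0174). Fetub, a fetuin, was at 256, 293 and 290.0 CPM with atractylodin and 229, 199.5 and 229.8 CPM with vehicle (adjusted p = 0.032). Both calls were lost under scaling by total counts (adjusted p = 0.0615 for Rbp4 and 0.0905 for Fetub) and in the edgeR likelihood ratio test (0.0586 for Rbp4 and 0.0813 for Fetub). The Rbp4 call was also lost without atractylodin 2 (adjusted p = 0.0826), vehicle 1 (0.113) or vehicle 3 (0.0793), and the Fetub call without any single library except atractylodin 1 (0.076 to 0.128). The thyroxine carrier gene Ttr and the transferrin gene Trf, described here with their values known, were lower in every atractylodin library than in any vehicle library without passing (log2 fold change -0.23 ± 0.09, SE, edgeR adjusted p = 0.163 for Ttr; -0.18 ± 0.09, adjusted p = 0.296 for Trf). Albumin itself averaged 52148 ± 4170.5 CPM with atractylodin and 54155 ± 1488 CPM with vehicle (SD, n = 3 each, edgeR adjusted p = 0.804).

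Cytokine transcripts were scarce in these livers. Il6 had 9, 16 and 6 counts in atractylodin 1, 2 and 3 and 0, 3 and 6 in vehicle 1, 2 and 3, and Tnf had 6, 0 and 1 against 0, 5 and 3, and both were below the filter and not tested. Vehicle 1 had far fewer total counts, and its 0 stands for up to 1.64 CPM by the floor. Il6 was at 0.897, 1.67 and 0.501 CPM in atractylodin 1, 2 and 3, and at 0.258 and 0.485 CPM in vehicle 2 and 3. Il1b was at 5.08, 4.18 and 5.43 CPM with atractylodin and 2.69, 3.78 and 5.58 CPM with vehicle (edgeR adjusted p = 0.797). Of 15 listed cytokines and receptors 10 were tested, and 1 rose (3.92% of all rows did) and none fell (3.33%). That was Il6ra, the ligand-binding chain of the interleukin-6 receptor, with 42.4, 50.7 and 49.4 CPM with atractylodin, against 37.1, 26.5 and 32.7 CPM with vehicle. Its log2 fold change was 0.61 ± 0.14 (SE, adjusted p = 0.00958), a call lost without vehicle 2 (adjusted p = 0.0744). Its signalling partner Il6st, chosen with its values known, had 29.9, 24.4 and 31.1 CPM with atractylodin and 42.0, 36.6 and 34.6 CPM with vehicle and did not pass (adjusted p = 0.107).

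Among 16 transducers of both pathways 2 rose (3.92% of all rows did) and none fell (3.33%). Ikbkg, which encodes the regulatory subunit of the IkappaB kinase complex, was at 47.3, 54.1 and 58.5 CPM with atractylodin, against 22.6, 20.6 and 24.1 CPM with vehicle. It was 2.38-fold higher (log2 1.25 ± 0.13, SE, edgeR adjusted p = 2.43e-05) and was called whichever of the 6 libraries was left out. Ikbkg overlaps G6pdx on the opposite strand, and reads of the pair may not have been told apart, since the sources used here do not give the strand setting of the counting. G6pdx itself averaged 2.61 CPM with atractylodin and 0.937 CPM with vehicle (log2 fold change 1.29, edgeR adjusted p = 0.126). Chuk, a catalytic subunit of the same complex, had 115, 99.9 and 128 CPM with atractylodin and 77.5, 92.0 and 92.2 CPM with vehicle (adjusted p = 0.0399), but its call was lost in DESeq2 (adjusted p = 0.067), limma-voom (0.0712), the edgeR likelihood ratio test (0.0675) and total-count scaling (0.116), and without any single library except atractylodin 2 (0.0686 to 0.166). Stat3 was at 277, 246 and 521 CPM with atractylodin and 296, 201 and 349 CPM with vehicle (edgeR adjusted p = 0.742).

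Liver transcription factors of acute phase promoters gave 1 rise and no fall among 9 tested (3.92% and 3.33% of all rows). Of the 9 estimates 3 were above 0 and 6 below. In 4 the unadjusted edgeR p was under 0.05 (2693 of all 12505 rows), and 5 had groups without overlap (26.2% of all rows). Foxa2, Onecut1 and Creb3l3, described with their values known, were lower in every atractylodin library than in any vehicle library. None of them passed (log2 fold change -0.29, -0.77 and -0.22, edgeR adjusted p = 0.0902, 0.0977 and 0.182). Hnf4a, the hepatocyte nuclear receptor, had 462, 439 and 533 CPM with atractylodin, against 321, 270.2 and 291 CPM with vehicle. The groups were well apart, and the log2 fold change was 0.71 ± 0.10 (SE, edgeR adjusted p = 0.000405). It overlaps an antisense transcript, Hnf4aos, from which its reads may not have been separated. Cebpb, encoding the C/EBP factor induced by interleukin-6, was at 63.0, 69.5 and 184 CPM with atractylodin and 40.4, 36.2 and 53.6 CPM with vehicle. All atractylodin libraries exceeded all vehicle libraries, and Cebpb did not pass (log2 fold change 1.27 ± 0.56, SE, adjusted p = 0.307) but was called higher without atractylodin 3 (log2 fold change 0.59, adjusted p = 0.0287). None of 10 tested feedback inhibitors passed in edgeR, and 3 had an unadjusted p under 0.05, as did 2693 of all 12505 rows. Of these 3 inhibitors Zc3h12a, encoding the RNase regnase-1, had the smallest p (adjusted p = 0.127). Socs3, the STAT3 target that shuts off interleukin-6 signalling, was at 9.67, 11.8 and 39.5 CPM in atractylodin 1, 2 and 3, against 26.4, 10.5 and 33.1 CPM in vehicle 1, 2 and 3 (adjusted p = 0.939). Atractylodin 3 was thus the highest library for Cebpb, Stat3 and Socs3 as well as for Saa1 and Saa2, whereas atractylodin 2 was the lowest of all 6 for none of these 3 regulators. Across their lists atractylodin 3 was highest for 8 of 16 transducers, 3 of 9 liver factors and 3 of 10 feedback inhibitors, against 15.6% of all rows. It was the lowest library for Cebpa, Creb3l3, Nr3c1, Foxa2, Pias3 and Ikbkb, which are named with their values known.

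Receptors and partners of the acute phase proteins were the list with calls in both directions, 1 higher and 2 lower of 10 tested (3.92% and 3.33% of all rows). Lrp1, the receptor that takes up heme bound to hemopexin, fell to 257, 293 and 327 CPM with atractylodin, against 406, 343 and 397 CPM with vehicle (log2 fold change -0.38 ± 0.10, SE, edgeR adjusted p = 0.032), a call lost without atractylodin 1 (0.137), atractylodin 2 (0.0784), vehicle 1 (0.15) or vehicle 3 (0.15), and in the edgeR likelihood ratio test (0.0701). Scarb1, an HDL receptor that also binds serum amyloid A, was at 96.4, 108 and 106 CPM with atractylodin and 144, 154 and 128 CPM with vehicle (adjusted p = 0.00758), a call lost without vehicle 2 (adjusted p = 0.051). Blvrb, a biliverdin reductase downstream of heme breakdown, rose to 243, 245 and 205 CPM with atractylodin, against 163, 159 and 149 CPM with vehicle (log2 fold change 0.56 ± 0.10, SE, adjusted p = 0.00185). Il6ra, Stat3, Cebpa, Cebpb, Pias3, Ikbkb, Lrp1, Il1b, Hamp and Mt2 also overlap another annotated gene on the opposite strand. Scarb1, Hnf4a, Onecut1, Crp and Trf overlap another annotated gene on the same strand, which no strand setting would separate. Over all these lists except the members and the cell type markers, 7 genes rose and 2 fell of 81 tested (11.1%, against 7.25% of all rows), which became 4 and 5 under scaling by total counts.

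**Figure D4:**
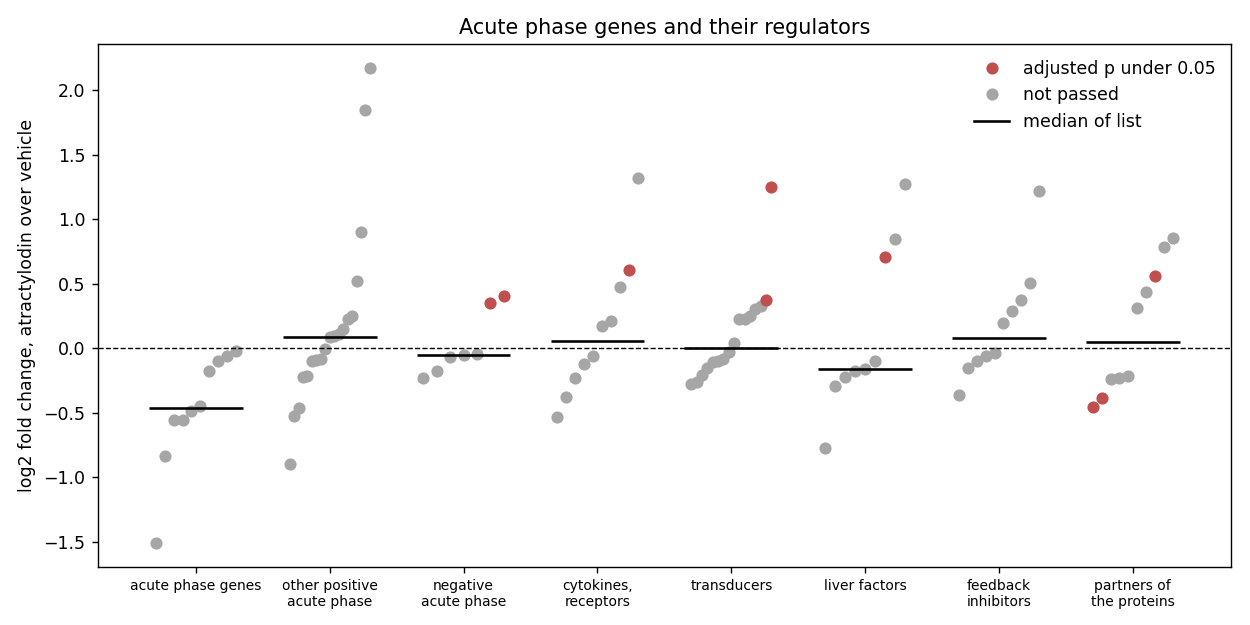
edgeR log2 fold change, atractylodin over vehicle (vertical axis), of each tested gene in the acute phase list and the lists of related genes (horizontal axis); red points passed an adjusted p of 0.05, grey points did not, and bars mark list medians. No red point appears among the acute phase genes, whose median of -0.47 is the lowest of the lists shown.

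Other cell types that make some of these proteins were also read. None of 9 macrophage markers passed in edgeR, and 2 had an unadjusted p under 0.05, as did 2693 of all 12505 rows. The summed level of the macrophage markers was 343, 222 and 259 CPM in atractylodin 1, 2 and 3, against 273, 389.9 and 282 CPM in vehicle 1, 2 and 3. Cd5l, a Kupffer cell gene and the most abundant of them, had 129.8, 79.5 and 97.0 CPM with atractylodin, against 105, 157 and 108 CPM with vehicle. Adipocyte markers summed to 9.37, 2.40 and 6.01 CPM with atractylodin and 12.4, 37.3 and 8.65 CPM with vehicle, nearly all of it Cfd, while Adipoq was at 0 in every library. Hepatocyte markers summed to 72091.5 to 80038 CPM with atractylodin and 76713 to 83859 CPM with vehicle, and 1 of the 8, Hnf4a, passed (7.25% of all rows did). The part of these cells in the results was not tested.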

How the data were processed

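Per the labels' protocols, liver RNA was extracted with Trizol and made into Lexogen Quant-Seq libraries. The authors deposited unnormalized counts for each gene symbol, with 1 file for each library. Bowtie2, bedtools and mm10 are named per the submitters' processing notes; the annotation, the strand setting, the handling of reads matching several genes and any use of molecular identifiers are not given in the sources used here, so floors cover counting error only. Groups and replicate numbers came from sample titles. No 2 libraries looked like copies (chi-square per degree of freedom at least 2.75).

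Rows were filtered by filterByExpr, scaled by TMM and tested with robust quasi-likelihood F-tests in edgeR 4.0.16 (R 4.3.3), adjusted by Benjamini-Hochberg over all 12505 rows. SE is the log2 fold change over the square root of F. The test was tried on simulated data first. Alternatives were DESeq2 1.42.0, limma-voom (limma 3.58.1), other scalings and filters, a replicate block, summed paralogs and leaving out each library. The members and lists were chosen with earlier results of these data known. Genes named were the members, passing genes of each list (or the smallest p), a few known regulators and paralogs, and the most abundant and passing markers; others are said to be named after the fact. Positions are from GENCODE M21, paralog alignments from Biopython 1.88.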

Additional observations from a re-analysis of the deposited data

How the results depend on the processing

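No acute phase gene passed in most settings, and DESeq2 and the fit without a filter on low counts each called 1. Leaving out each library in turn gave 0 to 1 member calls, 467 to 751 calls over all rows and 5 to 9 calls among the related lists, with 467 over all rows without vehicle 3 and 494 without vehicle 1, and 5 in the related lists in each of those fits. The likelihood ratio test gave 5 calls in the related lists. Signs turned when 1 library was left out for genes that had not passed: log2 fold changes ranged from -2.20 to 0.084 for Saa1, -2.44 to 0.43 for Saa2, -0.71 to 0.13 for Saa4, -0.33 to 0.085 for Hp, -0.20 to 0.17 for Itih4, -1.50 to 0.21 for Orm3, -1.09 to 0.40 for Socs3, -0.11 to 0.51 for Stat3, -0.11 to 0.0071 for Alb and -1.48 to 1.41 for S100a8, which also turned to -1.04 in limma-voom. The cause was not tested. Members left out of the library sizes, or paralogs summed, gave 0 member calls.

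Replicate numbers were not treated as pairs: same-numbered libraries' deviations from their group means correlated at -0.03, -0.09 and 0.02. With the replicate block 811 rows, 0 members and 9 related genes were called, and Cebpb passed (adjusted p = 0.0491) while Fetub did not (adjusted p = 0.0501). Only 3 libraries per group, and a wide spread in the atractylodin group, limit what can be detected for Saa1, Saa2 and Lcn2.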
